A study of Mus musculus with 12 samples.

Results

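The nuclear-encoded genes of oxidative phosphorylation were followed across mouse livers that carried or lacked a functional Rev-erbα gene and were taken at ZT8 or ZT20. Members were found by their symbols: the Nduf a, b, c, s and v series, Sdha to Sdhd, the Uqcr series, the nuclear Cox4 to Cox8 series and the Atp5 series, each with at least 10 reads in at least 3 of the 12 libraries. Of 38926 gene symbols counted, 86 had such a name and 79 met the read minimum. They comprised 35 genes of complex I, 4 of complex II, 8 of complex III, 15 of complex IV and 15 of complex V, with Ndufa4 and Ndufa4l2 counted in complex IV. The remaining 2 members, Atp5sl and Atp5s, bear ATP synthase names but are not subunits of the enzyme, and are now called Dmac2 and Dmac2l. Cox4i2, Cox6a2, Cox7b2, Cox8b, Cox8c, Atp5l2 and Atp5l-ps1 fell under the read minimum, with at most 5 reads in any library.

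Poly(A) RNA was sequenced from 4 groups of 3 livers: wild type at ZT8, Rev-erbα-/- (labelled Rev KO) at ZT8, wild type at ZT20 and Rev-erbα-/- at ZT20. Each sample is called a liver here, though the labels do not say that each is a separate animal. All mice were males of the mixed 129Ola/C57BL6 background aged 12 weeks, and the labels name no other allele or treatment. Zeitgeber time (ZT) counts hours from lights on, so that ZT8 lies in the day, when mice rest, and ZT20 in the night, when they feed. The germline knockout removes REV-ERBα from every cell, so the liver was not the only organ altered.

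Oxidative phosphorylation is carried out in the inner mitochondrial membrane. Complexes I and II pass electrons from NADH and succinate to ubiquinone, complex III passes them on to cytochrome c and complex IV to oxygen, and complex V, the ATP synthase, uses the proton gradient that complexes I, III and IV build. Most subunits are encoded in the nucleus and a small set in mitochondrial DNA. Transcription of the nuclear set is known to be driven by the factors NRF1 and GABP and by PGC-1 coactivators, whereas REV-ERBα is a haem-binding repressor of the circadian clock that competes with ROR activators for RORE sites.

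Each library held between 17641809 and 26060192 counted reads, of which the 79 members took 0.989 to 1.18%. Levels are given as CPM (counts scaled to a library size of 1e+06 reads, with TMM factors), and 3 counts, the floor used here, corresponded to 0.117 to 0.167 CPM. Nr1d1, which encodes REV-ERBα, read 129, 96.2 and 75.3 CPM in the 3 wild-type livers at ZT8 and 63.0, 71.9 and 80.6 CPM in the knockout livers. The groups overlapped and did not differ by edgeR's quasi-likelihood test (log2 difference -0.48, SE 0.18, adjusted p = 0.143). Reads remained on the gene in the knockout, and where in the gene they lay is not given by these counts, so its total count does not check the genotype labels. Arntl, which encodes the clock activator BMAL1 and is a known target repressed by REV-ERBα, read 0.796, 0.448 and 0.712 CPM in wild type at ZT8 and 24.2, 25.7 and 22.7 CPM in the knockout (log2 5.18, SE 0.13, edgeR adjusted p = 2.23e-12). It was thus far higher in all 3 livers labelled knockout, the direction that loss of this repressor gives. At ZT20 Arntl did not separate the genotypes, with means of 44.3 and 43.7 CPM. The livers labelled wild type at ZT8 were not alike: Saa1, an acute-phase gene, stood at 60.8 CPM in replicate 1 but at 4972 and 6489 CPM in replicates 2 and 3. Alignments set aside as not unique, per counted read, ran from 1.76 to 3.28 in this group and from 2.29 to 2.72 in the knockout at ZT8, against 1.56 to 1.67 and 1.24 to 1.56 at ZT20, so that day and night did not overlap in either genotype. Replicate 3 of wild type at ZT8 had the highest ratio, and the part of this ratio in the results was not tested. The summed CPM of 6 acute-phase genes ran from 2034 to 21490 in that group and from 1706 to 2580 over the other 9 livers. The main counts and medians that rest on wild type at ZT8, and some single genes, are therefore also given without replicates 2 and 3. The part of the acute-phase difference in these results was not tested. All 6 hepatocyte markers were detected, whereas 5 striated muscle markers summed to at most 0.134 CPM and 4 fat markers to at most 0.311 CPM, with 2 and 1 of them at 0 reads throughout.

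Levels per length covered a wide range among the members. On the scale of CPM per kb of exon, averaged over the 4 groups, the 79 members had a median of 50.2. Length here is that of all annotated exons of a gene merged, which can far exceed its main transcript. It was 6443 against 544 bases for Atp5l and 4237 against 1916 bases for Atp5b. The order of the members and the medians below thus depend in part on the annotation. The highest on this scale were 2 subunits of the ATP synthase, Atp5a1 (subunit α) at 380.1 and Atp5b (subunit β) at 338.8. The per-kb medians were 44.4 for complex I, 128 for complex II, 117 for complex III, 37.5 for complex IV and 50.2 for complex V. The lowest on this scale, Atp5l, stood at 0.183 CPM per kb, although its product, subunit g, belongs to the ATP synthase as well. The authors counted only uniquely mapped reads, and 72.2% of the main Atp5l transcript is found nearly unchanged in transcripts of other genes, 4 of them pseudogenes. For 10 members at least 50% of the main transcript was shared in this way, and these had a median of 12.4 CPM per kb against 58.3 for the other 69. Their counts, those of Atp5g2, Atp5l, Ndufs3, Atp5h, Atp5f1, Uqcrb, Ndufs5, Cox7c, Ndufb2 and Atp5o, are thus uncertain as levels. Among them Ndufb2 shared its transcript with 2 other genes, of which 0 were pseudogenes. Its exons overlap those of Braf, Gm16272 and Gm42420, so its shared part can lie at its own locus and not in a distant copy.

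**Figure D1:**
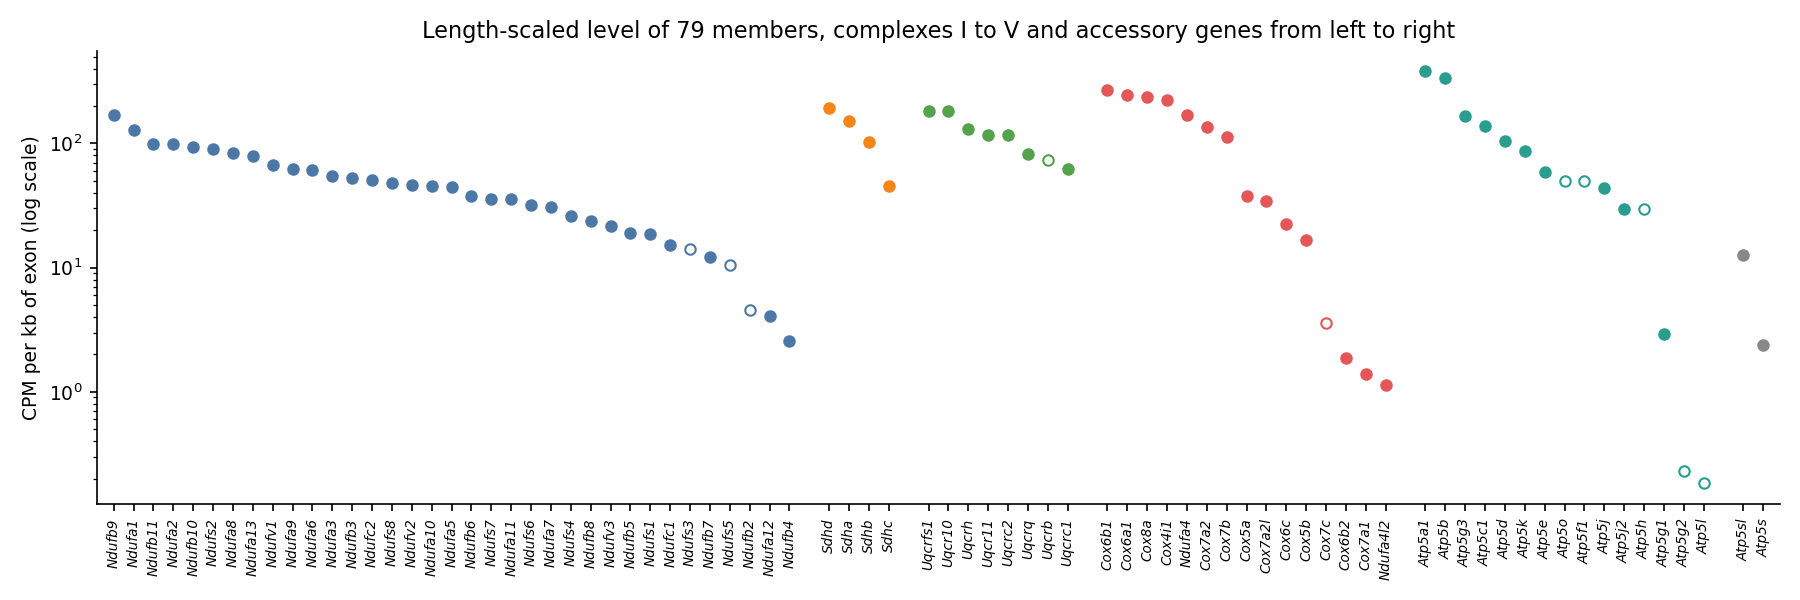
Length-scaled level (CPM per kb of merged exon, log axis, mean of the 4 group means) of each of the 79 members, ordered within complexes I to V and the accessory genes. Open circles mark the 10 members with at least 50% of their main transcript shared with other genes, among them the lowest, Atp5l at 0.183 CPM per kb, and filled circles the other 69.

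In the Atp5g, Cox6b and Ndufa4 families 1 gene made up nearly all of the length-scaled level in liver, and in the Cox7a family 1 gene made up most of it. Atp5g3, one of the genes for the proton-carrying c subunit, gave 98.1% of the summed CPM per kb of its family, against 1.73% for Atp5g1 and 0.136% for Atp5g2, whose transcript is shared along 100% of its length. Cox6b1 gave 99.3% beside its testis isoform Cox6b2 with 0.697%. Ndufa4 gave 99.3% beside Ndufa4l2 with 0.661%. In the Cox7a family Cox7a2 gave 79.1%, Cox7a2l, the respiratory supercomplex factor, 20.1%, and the heart and muscle isoform Cox7a1 only 0.82%. In CPM, Cox7a1 lay between 0.389 and 1.43 in the 12 livers. The muscle isoforms Cox6a2 and Cox8b were among the genes under the read minimum.

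Promoter sequences were available for 67 of the 79 members, as 73 RefSeq windows from 250 bases before to 50 bases after a transcription start (GRCm38.p6). The NRF1 palindrome, formed by GCGCA and its reverse complement, was found in 6.85% of them, against 0.971% of all 32851 promoters of that length and 1.99% of those of tested genes. All motifs were searched on both strands. The ETS motif CCGGAAG, bound by GABP, was found in 21.9%, against 8.86% of all promoters and 16.2% of those of tested genes. AAGATGGCG, the core of the YY1 motif, was found in 12.3%, against 1.40% of all and 2.76% of tested genes' promoters. In 7 of the 8 members with this last motif it lay after the start, and its letters contain ATG. The E-box CACGTG occurred in 12.3%, against 7.15% and 9.61%. A match is a description of the sequence and was not tested for binding.

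The windows with the NRF1 palindrome are shown because they mark the known regulator of this gene set. Each runs 5′ to 3′ on the strand of the gene with the match in capitals. They lie at chr15:102671070-102671099 (minus strand), chr5:108434430-108434459 (minus), chr5:115349101-115349130 (minus), chr17:56717692-56717721 (plus) and chr9:108936668-108936697 (plus), in the order given.
Atp5g2: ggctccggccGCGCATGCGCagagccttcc
Atp5k: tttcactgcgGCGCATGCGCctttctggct
Cox6a1: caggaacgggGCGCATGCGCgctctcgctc
Ndufa11: cctgcactgcGCGCATGCGCgcacgccttg
Uqcrc1: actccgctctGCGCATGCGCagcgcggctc

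The RORE half-site AGGTCA with the T before it, TAGGTCA, is shown because REV-ERBα itself binds RORE sites. The rest of the 5′ extension was not part of the search, so a match need not be a full RORE. TAGGTCA occurred in 4.11% of the member promoters, against 2.61% of all and 2.08% of tested genes' promoters. The 3 members were Cox7b (chrX:106015664-106015693, plus), Ndufa11 (chr17:56717762-56717791, plus, matched as the reverse complement) and Ndufb10 (chr17:24724568-24724597, minus).
Cox7b: gacaatttctaTAGGTCAacccctaaatct
Ndufa11: ctcgcgagagtTGACCTAgccggctaccct
Ndufb10: atcttagctggTAGGTCAgggcaaagcatt
None of these 3 genes passed the test between genotypes. Their log2 differences, Rev-erbα-/- minus wild type, ran from -0.05 to 0.15 at ZT8 and from -0.17 to -0.03 at ZT20.

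In wild-type livers part of the oxidative phosphorylation genes rose from day to night, and nearly all of these calls were lost when 2 of the day livers were left out. Calls over all tested genes also became fewer in that fit. By edgeR's quasi-likelihood test with Benjamini-Hochberg adjustment over 14488 genes, 29 of the 79 members were higher at ZT20, 2 were lower and the other 48 did not pass. With all 12 libraries, 39.2% of the members were called, against a background of 27.7% of all tested genes in either direction. Called higher were 36.7% against 13.8%, and called lower 2.53% against 13.9%. The median log2 difference, ZT20 minus ZT8, was 0.20 over the members and 0.00 over all tested genes, and 73 members lay above 0, against 50% of all tested genes. Without the ZT8 replicates with high Saa1 the medians were 0.13 over the members and 0.01 over all tested genes. All 3 ZT20 livers exceeded all 3 ZT8 livers in 47 members and lay below them in 3, against 21.5% and 20.9% of all tested genes. In bulk liver RNA, more RNA per cell cannot be told apart from a larger share of the cells that hold it. The summed CPM of the 6 hepatocyte markers also differed in this comparison, from 49680 to 71770 at ZT8 and from 93760 to 104100 at ZT20, with 4 of the 6 genes called higher. Most of this sum was Alb, and the 6 differences ran from 0.05 to 0.83. Alb had 1318698 reads in ZT8 replicate 1 and 766333 and 663878 reads in replicates 2 and 3, those with high Saa1. Of 5 tested Kupffer cell markers 2 were called lower and none higher (median -0.21). Of 4 cholangiocyte markers 2 were called higher and none lower (median 1.00), and of 5 stellate markers 1 was called lower (median 0.14). No endothelial (median -0.01), erythroid (0.52), lymphocyte (0.78) or neutrophil marker (1.52) was called. The part of these markers was not tested.

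**Figure D2:**
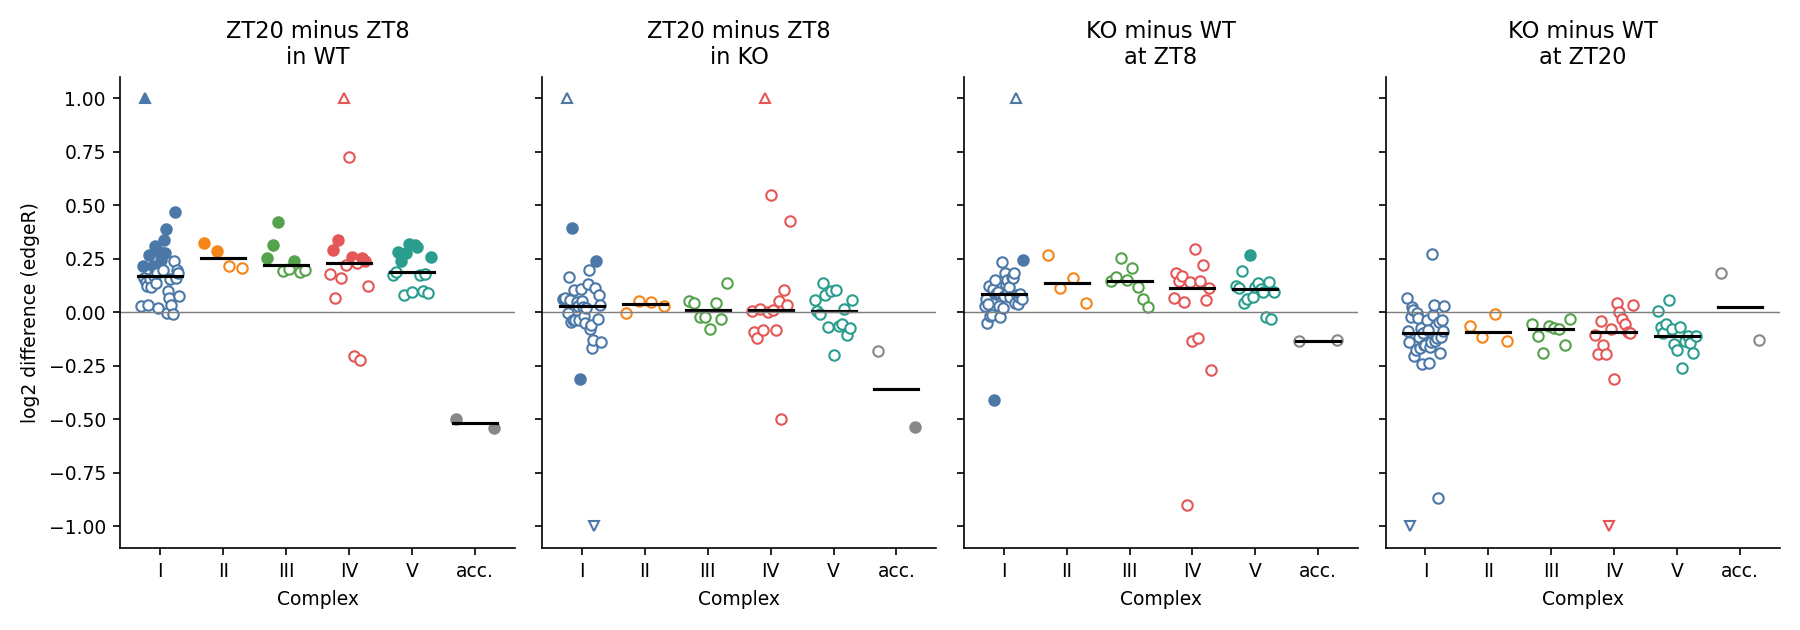
log2 differences from edgeR for each member (circles) by complex, with acc. for Atp5sl and Atp5s. Filled symbols passed an adjusted p of 0.05, black lines are medians, and triangles mark values beyond the axis limits of -1 and 1. The wild-type medians of complexes I to V lie between 0.17 and 0.25 from day to night, and those of the knockout between 0.01 and 0.04.

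Complex I, which oxidises NADH, had 11 of its 35 members higher at ZT20 in wild type and none lower, with a median of 0.17. These 11 were 31.4%, against 13.8% of all tested genes called higher, the background for the count of each complex below. Ndufs7 (chr10:80249121-80256794), the core subunit with the iron-sulfur cluster next to the ubiquinone site, read 52.1, 57.2 and 50.8 CPM at ZT8 and 77.6, 72.0 and 72.0 CPM at ZT20. The 2 groups were far apart, and the log2 difference was 0.47 (SE 0.07, edgeR adjusted p = 1.36e-04). Ndufb8 and Ndufc1, accessory subunits of the membrane arm, rose by log2 0.34 (SE 0.08) and 0.39 (SE 0.11). Ndufb8 read 74.0, 68.0 and 60.0 CPM at ZT8 and 91.1, 84.4 and 80.0 CPM at ZT20. The largest difference was that of Ndufa12, an accessory subunit of the matrix arm, at 2.27, 2.99 and 1.78 CPM in the day and 9.96, 15.1 and 17.8 CPM at night (log2 2.60, SE 0.42, adjusted p = 0.0013 by edgeR). Its main transcript is shared along 36.2% of its length with a pseudogene, and its level of 4.05 CPM per kb was under the complex I median.

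All 4 complex II genes, which encode succinate dehydrogenase, had differences above 0, and 2 passed the test. Sdha, the flavoprotein that oxidises succinate, read 624, 512 and 478 CPM at ZT8 and 728, 655 and 640 CPM at ZT20 (log2 0.33, SE 0.10, edgeR adjusted p = 0.026). Every night value lay above every day value, but the call was lost in 7 of 21 alternatives, and without wild-type ZT8 replicates 2 and 3 the difference was 0.11 (edgeR adjusted p = 0.64). Sdhb, the iron-sulfur subunit, rose by 0.29 (SE 0.09, edgeR adjusted p = 0.024). It lost the call in 6 of 21 alternatives, over which the difference was 0.15 at the lowest. The membrane anchors Sdhc and Sdhd stood at log2 differences of 0.22 and 0.21 (edgeR adjusted p = 0.079 and 0.068).

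In complex III, the cytochrome bc1 complex, 4 of 8 members rose and the other 4 had differences between 0.19 and 0.20. Uqcrb, a small subunit near the ubiquinone pocket, read 57.5, 52.3 and 55.7 CPM at ZT8 and 71.2, 79.3 and 71.4 CPM at ZT20 (log2 0.42, SE 0.09, edgeR adjusted p = 0.0030). Uqcr11, Uqcr10 and Uqcrfs1, the Rieske iron-sulfur protein, rose by 0.32, 0.25 and 0.24. Cyc1, the cytochrome c1 of the same complex, which its name kept out of the set, rose by 0.25 (SE 0.07, edgeR adjusted p = 0.022), from 202 ± 7.55 to 240 ± 19.0 CPM (SD, n = 3). It lost the call in 6 of 21 alternatives, and stood at 0.22 without wild-type ZT8 replicates 2 and 3 (edgeR adjusted p = 0.22).

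Of 15 complex IV members 5 rose: Cox5a, Cox6a1, Cox7a2, Cox8a and Ndufa4. Cox6a1, an accessory subunit on the outer face of cytochrome c oxidase, read 163, 157 and 134 CPM at ZT8 and 188, 191 and 195 CPM at ZT20 (log2 0.34, SE 0.08, edgeR adjusted p = 0.0047). The night values were close to each other and the groups did not overlap. Cox4i1, the most abundant member of complex IV by CPM and the subunit to which ATP is known to bind, stood at 329 ± 15.2 and 372 ± 13.7 CPM (SD, n = 3), with a difference of 0.18 that did not pass the test (edgeR adjusted p = 0.095). Cox7a2l went the other way, at 55.2 ± 4.61 and 47.9 ± 3.45 CPM (SD, n = 3), and did not pass either (edgeR adjusted p = 0.084).

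Complex V had 7 of 15 members higher at night, with all 15 differences above 0. The 7 were Atp5c1 and Atp5d (subunits γ and δ of the central stalk), Atp5f1, Atp5h and Atp5o (subunits b, d and OSCP of the peripheral stalk) and Atp5g1 and Atp5g3 (subunit c). Their log2 differences lay between 0.24 and 0.32. Atp5g3 read 344, 316 and 305 CPM at ZT8 and 408, 420 and 370 CPM at ZT20. Atp5a1 and Atp5b, the members with the highest CPM, differed by 0.17 and 0.19 and did not pass (edgeR adjusted p = 0.19 and 0.15). The members called lower were not enzyme subunits. Atp5sl (Dmac2), known as an assembly factor of the complex I membrane arm, read 47.3, 45.4 and 48.6 CPM at ZT8 and 32.0, 30.5 and 34.8 CPM at ZT20 (log2 -0.54, SE 0.09, edgeR adjusted p = 4.45e-04). Atp5s (Dmac2l) stood at 5.70 ± 0.22 and 4.03 ± 0.19 CPM (SD, n = 3; log2 -0.50).

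The number of night calls depended on which livers stood for the wild type at ZT8. With replicates 2 and 3 left out, a single day liver was assumed to vary like the other groups. Most calls among the members were then lost, and calls over all tested genes also became fewer. Ndufs7 stood at 0.50 and Atp5sl at -0.55, and the median was 0.13 over the members and 0.01 over all tested genes. Without wild-type ZT8 replicate 3 alone there were 14 calls, without wild-type ZT20 replicate 1 there were 18 and without replicate 2 there were 15. With all 12 libraries there were 31, or 39.2%, against 27.7% of all tested genes. The medians over the members in these reduced fits were 0.17, 0.18 and 0.205 in that order, and those over all tested genes lay between -0.01 and 0.00. The range of calls over all tested genes with a library left out is given below. With library totals in place of TMM scaling, 12 members were called higher and 3 lower, and 67 differences lay above 0. The median was then 0.13 over the members and -0.07 over all tested genes. These medians lay 0.195 apart, beside 0.196 in the main fit.

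**Figure D3:**
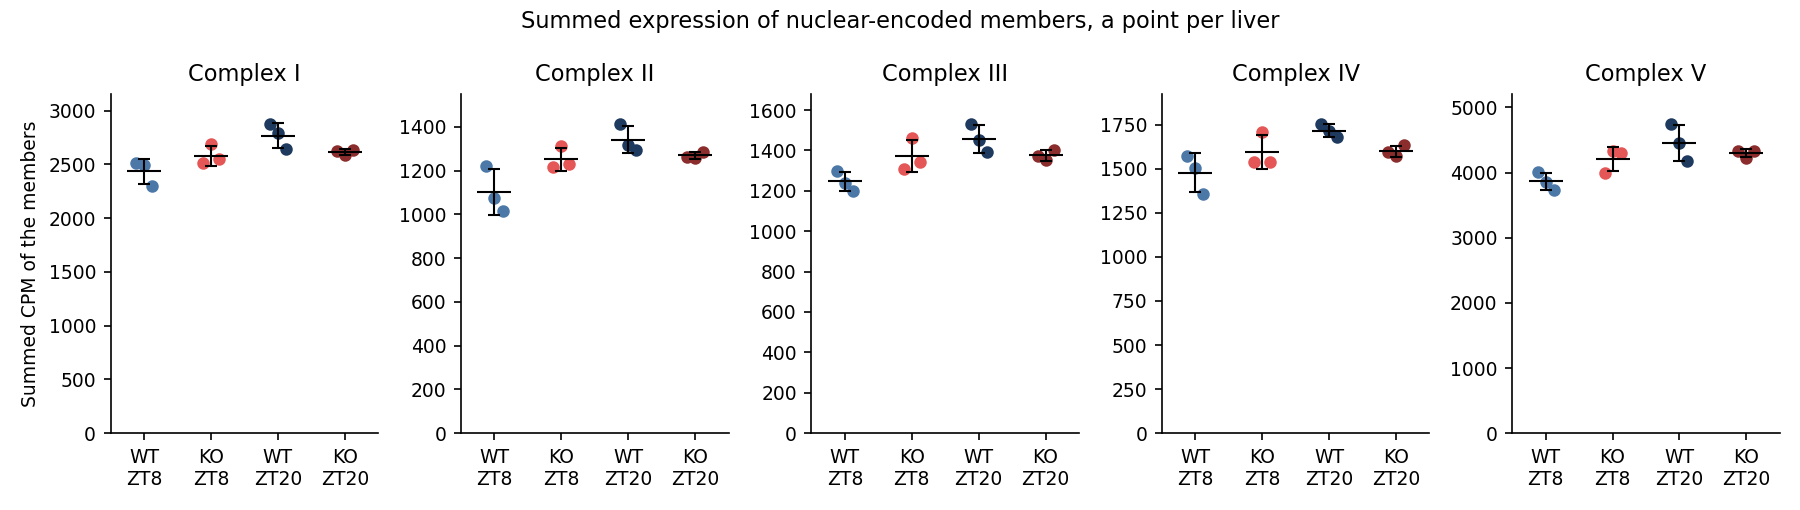
Summed TMM-scaled CPM of the members of each complex, with a point for each liver and bars for the mean and SD (n = 3). In complex I the wild-type sums lay between 2302 and 2513 at ZT8 and between 2639 and 2872 at ZT20, and the knockout sums at ZT20 between 2584 and 2633.

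In Rev-erbα-/- livers the same genes differed little between day and night. Of the 79 members 2 were higher at ZT20 and 2 lower, that is 5.06% against a background of 17.5% of all tested genes, of which 8.79% were higher and 8.67% lower. The median difference was 0.02 over the members and 0.01 over all genes, with 45 of 79 above 0 against 50.9% of all genes. Ndufs7 rose, from 51.6, 55.4 and 57.2 CPM at ZT8 to 66.6, 63.2 and 64.2 CPM at ZT20 (log2 0.24, SE 0.07, edgeR adjusted p = 0.026). Atp5sl fell, from 45.5, 45.0 and 38.5 to 26.5, 29.4 and 33.0 CPM (log2 -0.54, SE 0.09, edgeR adjusted p = 9.97e-04). Neither gene had overlapping day and night values. Ndufb3, another accessory subunit of the complex I membrane arm, fell from 45.5 ± 3.17 to 36.7 ± 1.36 CPM (SD, n = 3; log2 -0.31, SE 0.09), and Ndufa6 rose. Without knockout ZT20 replicate 2 there were 2 calls in place of 4. The 29 members called higher at night in wild type, a set picked by that test, had a median difference of 0.28 there and 0.05 in the knockout.

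Between genotypes at ZT8 few members differed. In Rev-erbα-/- livers 2 members were higher and 1 lower, 3.80% of the members against a background of 8.45% of all tested genes, of which 4.4% were higher and 4.04% lower. Most of the others leaned the same way: 66 of 79 differences, 83.5% against 50.3% of all genes, were above 0, with a median of 0.10. Among the cell type markers, 5 of 6 hepatocyte markers lay above 0 (median 0.39, 1 called, 5 at an unadjusted p under 0.05) and 0 of 5 Kupffer cell markers did (median -0.47, none called, 2 at an unadjusted p under 0.05). Their summed CPM overlapped between genotypes, at 49680 to 71770 in wild type and 59270 to 85490 in the knockout for hepatocyte markers and at 249.5 to 399.2 and 224.6 to 280.8 for Kupffer cell markers, and their part was not tested. The knockout livers all exceeded the wild-type livers in 14 members and lay below them in 1, against 13.2% and 12.3% of all tested genes. The count above was not far from its background, whereas the count below was under it. Without wild-type replicates 2 and 3 the median was 0.04 and 54 differences were above 0. Without wild-type replicate 3 alone it was 0.05, and without knockout replicate 2 it was 0.06. The 3 calls became 5 without wild-type ZT8 replicate 1 and 1 without any of wild-type ZT8 replicates 2 and 3, knockout ZT8 replicates 1 and 2 and knockout ZT20 replicate 2. Wild-type ZT8 replicate 3 held the lowest of the 12 values in 51 of the 79 members, and it was also the library with the highest ratio of alignments that were not unique to counted reads (3.28).

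Ndufa6 (chr15:82350140-82354322), an accessory subunit of the matrix arm of complex I, was the member called lower. It read 122, 117 and 101 CPM in wild type at ZT8 and 83.9, 90.8 and 81.0 CPM in the knockout (log2 -0.41, SE 0.09, edgeR adjusted p = 0.0084). The wild-type values all lay above those of the knockout. At ZT20 the levels were 126 ± 10.1 and 112 ± 6.55 CPM (SD, n = 3; edgeR adjusted p = 0.37), and within the knockout Ndufa6 rose from day to night by 0.39 (SE 0.09, edgeR adjusted p = 0.0059). The genotype effects at the 2 times did not pass the test of their difference (-0.24, SE 0.12, edgeR adjusted p = 0.30). Ndufa6 was called at ZT8 in every alternative fit, at log2 differences from -0.52 to -0.36.

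The members called higher were Atp5f1 (Atp5pb, chr3:105942698-105960099), subunit b of the ATP synthase stalk, and Ndufv3 (chr17:31520115-31531331), an accessory subunit of the NADH-binding module. Atp5f1 read 185, 180 and 170 CPM in wild type and 223, 218 and 203 CPM in the knockout (log2 0.27, SE 0.07, edgeR adjusted p = 0.031). Ndufv3 read 68.4, 64.1 and 60.7 CPM in wild type and 74.5, 74.8 and 79.8 CPM in the knockout (log2 0.25, SE 0.07, edgeR adjusted p = 0.035). Neither pair of groups overlapped. Over 21 alternatives Atp5f1 lost the call in 9 and Ndufv3 in 11, among them library totals, the 6 ZT8 livers alone and the fit without wild-type replicates 2 and 3. Exons of Atp5f1 overlap those of Wdr77 and Gm42890 along 8.21% of their length, and 64.6% of its main transcript is shared with 3 other genes.

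Other members had large differences that did not pass. Ndufs5, a complex I subunit of the intermembrane space, read 8.16, 6.78 and 8.19 CPM in wild type and 15.6, 17.6 and 17.2 CPM in the knockout at ZT8, so the groups were well apart (log2 1.12, SE 0.68, edgeR adjusted p = 0.37). At ZT20 its knockout values were 8.60, 3.86 and 0.089 CPM, the last under the 3-count floor, beside 7.63, 8.01 and 7.38 CPM in wild type. When the 6 ZT8 livers were fitted alone, the ZT8 difference was called (edgeR adjusted p = 4.34e-04), as it was without knockout ZT20 replicate 3 (edgeR adjusted p = 0.0060). Its transcript is shared along 60.8% of its length with a pseudogene. Sdha stood at 621, 663 and 657 CPM in the knockout beside 624, 512 and 478 CPM in wild type (log2 0.27, edgeR adjusted p = 0.12). The Sdha difference was called without wild-type replicate 1 (0.38, edgeR adjusted p = 0.011) and was 0.05 without replicates 2 and 3 (edgeR adjusted p = 0.91). Uqcrb stood at a log2 difference of 0.25 (edgeR adjusted p = 0.11) and was called without knockout ZT8 replicate 3 (0.37, edgeR adjusted p = 0.0077). The testis isoform Cox6b2 had the lowest value of complex IV (log2 -0.90, SE 0.99), and the sign turned without wild-type replicate 1.

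**Figure D4:**
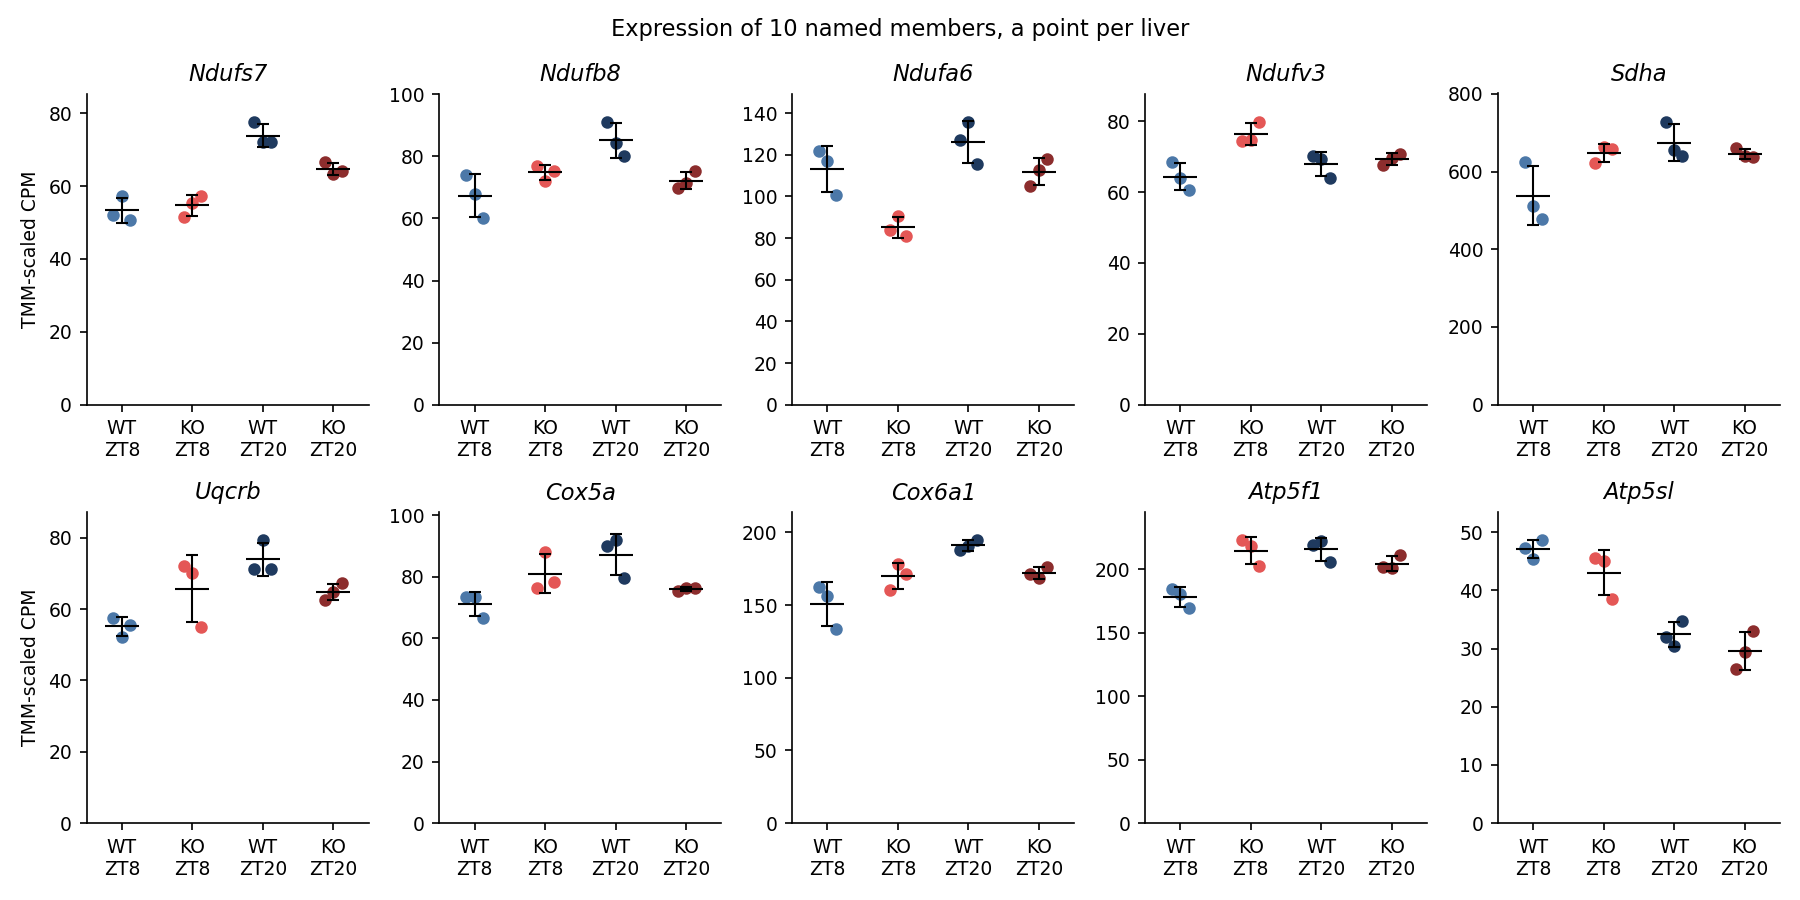
TMM-scaled CPM of 10 members in each liver (points), with the mean and SD of each group (n = 3). Ndufa6 lay lower in the knockout at ZT8, between 81.0 and 90.8 CPM, than in wild type, between 101 and 122 CPM, while Atp5sl was lower at ZT20 than at ZT8 in both genotypes.

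At ZT20 no member was called between genotypes by edgeR's test with all 12 libraries, against a background of 3.63% of all tested genes. At an unadjusted p under 0.05 there were 10 members, against 14.6% of all genes, and DESeq2 called 1, Ndufa12 (adjusted p = 0.015). Here the lean was downward: 67 of 79 differences were below 0, against 50.2% of all genes, and the median was -0.09. The median was -0.10 for the hepatocyte markers and 0.16 for the Kupffer cell markers, none of them called. The knockout livers lay below the wild-type livers in 23 members and above them in 2, against backgrounds of 11.3% and 11.2% of all tested genes. Ndufa12 read 9.96, 15.1 and 17.8 CPM in wild type and 2.73, 6.58 and 9.83 CPM in the knockout (log2 -1.17, SE 0.37, edgeR adjusted p = 0.16). The highest knockout liver stayed just under the lowest wild-type liver, and without that knockout liver, replicate 3, edgeR called the difference (log2 -1.61, SE 0.34, adjusted p = 0.034). Atp5h read 49.5, 53.0 and 44.5 CPM in wild type and 39.6, 40.3 and 42.7 CPM in the knockout (log2 -0.26, SE 0.09, edgeR adjusted p = 0.13). The largest differences of the other complexes were those of Sdhd (-0.13), Uqcrb (-0.19) and Cox6b2 (-1.27), and none passed.

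The genotype effect at ZT8 was higher than that at ZT20 in 70 of 79 members, against 50.1% of all tested genes, with a median of 0.20 over the members and 0.00 over all tested genes. The median was 0.44 over the hepatocyte markers, with 1 of 6 called higher, and -0.44 over the Kupffer cell markers, with 1 of 5 called lower, and their part was not tested. Only Cox5a passed the test of that difference, 1.27% of the members against a background of 5.88% (3.05% in this direction), and 20 members had an unadjusted p under 0.05, against 19.6% of all tested genes. Cox5a, a matrix-facing accessory subunit of cytochrome c oxidase, read 73.4, 73.4 and 66.7 CPM in wild type and 76.4, 88.2 and 78.4 CPM in the knockout at ZT8. At ZT20 it read 90.0, 91.9 and 79.6 CPM in wild type and 75.3, 76.5 and 76.3 CPM in the knockout. The knockout livers were thus all above the wild type in the day and all below it at night, and the genotype effects differed by 0.38 (SE 0.11, edgeR adjusted p = 0.0487). The adjusted p ran from 0.026 to 0.25 over the alternatives, and Cox5a lost the call in 12 of 20 of them, among them library totals, upper-quartile scaling and the fits without wild-type ZT8 replicate 2 or 3. DESeq2 called 5 members, adding Atp5c1, Atp5f1, Ndufb8 and Uqcrb. With edgeR 7 members were called without wild-type ZT8 replicate 1, 3 without knockout ZT8 replicate 3, and 0 without any of wild-type ZT8 replicates 2 and 3, knockout ZT8 replicate 2, wild-type ZT20 replicates 1 and 2 and knockout ZT20 replicates 1 and 2.

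Over the 4 group means, wild type at ZT20 was the highest group in 56 of the 79 members, against 24.7% of all tested genes, and wild type at ZT8 the lowest in 59, against 29.4%. Single libraries weigh in this order. Wild-type ZT8 replicate 3 held the lowest of the 12 values in 51 members, and wild-type ZT20 replicate 1 the highest in 30. The order was not computed without wild-type ZT8 replicates 2 and 3. The knockout was the highest group in 12 members at ZT8 and in 8 at ZT20, and the lowest in 8 and 9. At ZT8 all members summed to 10180 ± 501 CPM in the wild-type livers and to 11050 ± 461 CPM in the knockout livers. At ZT20 the sums were 11770 ± 556 CPM and 11190 ± 148 CPM (SD, n = 3). The 2 knockout groups overlapped in this sum, and so did the 2 genotypes at each time. In complexes II and III wild type at ZT8 was the lowest group in all 4 and all 8 members. A difference above 0 at ZT8 together with one below 0 at ZT20 was found in 59 members, 74.7% against 25.1% of all tested genes.

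Genes outside the set were counted for the same comparisons. In wild type, 13.8% of all tested genes were higher at ZT20 and 13.9% lower. Of 79 mitochondrial ribosomal protein genes tested 16 (20.3%) were higher and 2 lower (median 0.06). Of 82 cytosolic ribosomal protein genes 9 (11%) were higher and 5 (6.1%) lower (median 0.08). Of 14 genes of the tricarboxylic acid cycle 3 (21.4%) were higher and 2 (14.3%) lower (median 0.14). Of 38 assembly factors of the respiratory chain 6 (15.8%) were higher and none lower (median 0.13). The shares called higher among the cytosolic ribosomal proteins and the assembly factors were near the background. Among the 10 tested protein genes of mitochondrial DNA 1 (10%) was higher (median 0.11). Of these 10, mt-Co2, mt-Co3 and mt-Atp6 had group means of 0.58 to 1.32 CPM, beside 14170 CPM for mt-Co1 in wild type at ZT8. Their part of the median rests on few reads. Between genotypes at ZT8 71.4% of the tricarboxylic acid cycle genes (median 0.08) and 71.1% of the assembly factors (0.06) lay above 0. So did 59.5% of the mitochondrial and 45.1% of the cytosolic ribosomal proteins, beside 83.5% of the oxidative phosphorylation genes. At ZT20 the medians between genotypes were -0.03 for the mitochondrial and -0.04 for the cytosolic ribosomal proteins, beside -0.09 for the oxidative phosphorylation genes. Those of the cycle genes and assembly factors were -0.03 and 0.02. For the difference of the genotype effects these 2 lists had medians of 0.14 and 0.07, beside 0.20 for the oxidative phosphorylation genes. Ndufab1, the acyl carrier protein of complex I, whose symbol the naming rule missed, is named here after its values were seen. It rose at night in wild type (0.41, SE 0.09, edgeR adjusted p = 0.0032), and its genotype effects at ZT8 and ZT20 differed by 0.57 (SE 0.13, edgeR adjusted p = 0.013).

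**Figure D5:**
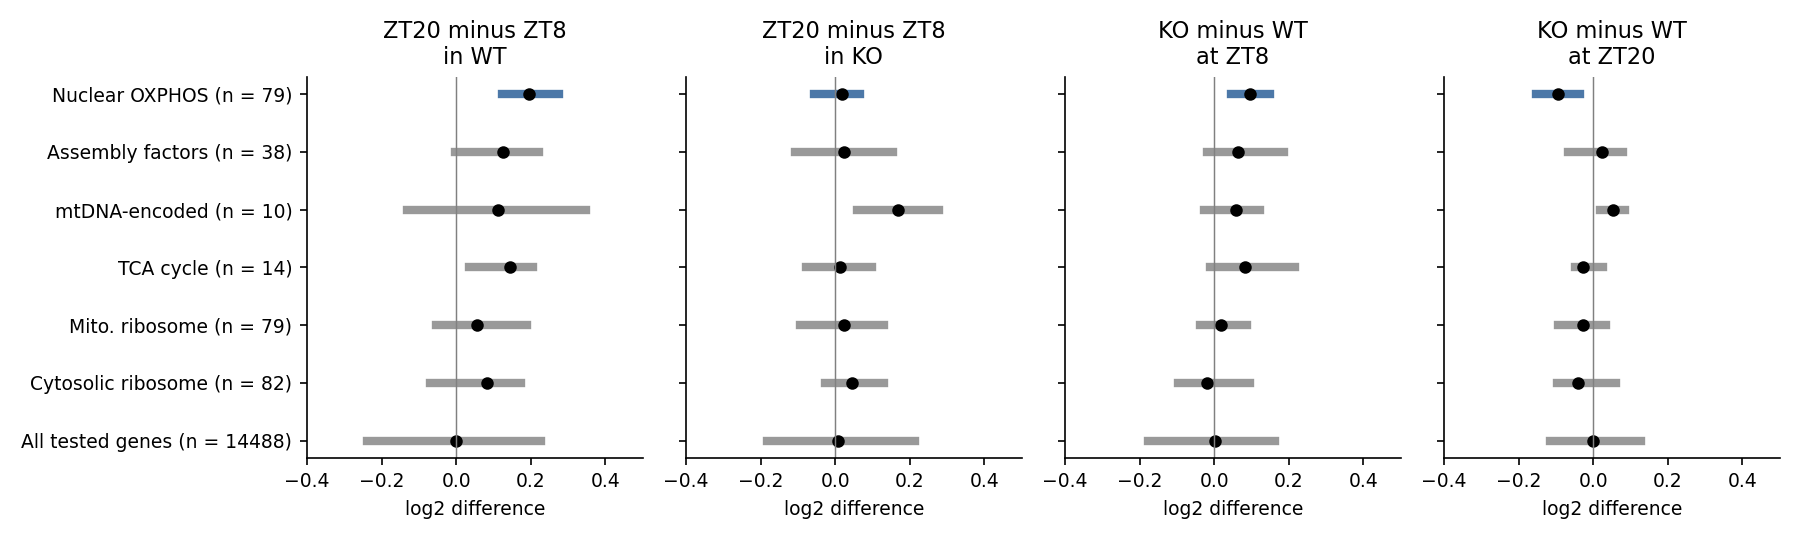
Median (point) and middle 50% (bar) of the log2 differences over the tested genes of each list in 4 comparisons. The nuclear oxidative phosphorylation genes had medians of 0.20 and 0.02 from day to night in wild type and knockout, and of 0.10 and -0.09 between genotypes at ZT8 and ZT20.

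Of 14 regulators of mitochondrial gene expression, 2 were lower in the knockout at ZT8 and none differed at ZT20. These 2 were 14.3% of the list, against 4.04% of all tested genes called lower at ZT8. Both were PGC-1 coactivators. Pprc1, a further coactivator of that family on the list, was not called. It had 738, 507 and 513 reads before scaling in wild type at ZT8 and 516, 527 and 692 reads in the knockout. Ppargc1a read 13.1, 15.2 and 16.1 CPM in wild type and 10.8, 8.72 and 7.59 CPM in the knockout (log2 -0.71, SE 0.14, edgeR adjusted p = 0.0053). Ppargc1b read 9.63, 12.7 and 11.9 CPM in wild type and 5.14, 5.33 and 7.49 CPM in the knockout (log2 -0.92, SE 0.15, edgeR adjusted p = 0.0017). The groups did not overlap for either gene, and the direction was opposite to the median of the oxidative phosphorylation genes. Without wild-type replicates 2 and 3 they stood at -0.54 and -0.69 and were not called. Ppargc1b also fell from ZT8 to ZT20, by 1.59 on the log2 scale in wild type and by 0.71 in the knockout. Ppargc1a was called higher at ZT20 than at ZT8 in the knockout. That difference ran from 0.31 to 0.57 over 21 alternatives and lost the call in 11 of them. Nrf1, Gabpa, Esrra and Tfam, which encode 2 transcription factors of this gene set, the oestrogen-related receptor α and the mitochondrial transcription factor, passed no test in any of the 5 comparisons. Cycs, which encodes cytochrome c, did not pass either, at 4.89 to 11.5 CPM over the 12 livers.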

How the data were processed

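The deposited files hold 1 count per gene symbol and library. Per the labels and the study's methods, the authors aligned reads to mm10 with TopHat, kept uniquely mapped reads and counted them over exons with HTSeq without strand, and they used DESeq2 1.6.3 on these counts. No further normalisation was applied to the deposited counts. The 5 summary lines of each file were left out.

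Counts were analysed in R 4.3.3 with edgeR 4.0.16 (filterByExpr, TMM scaling, robust quasi-likelihood F-test), with all 12 libraries and 4 group means in 1 fit, which left 14488 genes. Contrasts were genotype at each time, time in each genotype, and the difference of the genotype effects. P-values were adjusted by Benjamini-Hochberg over all tested genes, and calls used an adjusted p of 0.05. The SE is the log2 difference divided by the square root of F. The labels number the samples but do not say that each is a separate animal, so p-values measure the spread between these samples. The 3-count floor covers counting error only.

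Exon lengths, positions and transcripts came from GENCODE M21 (mm10) and promoters from RefSeq (GRCm38.p6). Shared transcript length was found with BLAST+ 2.17.0 at 97% identity over at least 75 bases. The scripts were tested on simulated data. Named genes were, in each comparison, up to 8 called members with the largest differences, the largest of each complex between genotypes, isoform families, Sdha to Sdhd, the most abundant of each complex and a list of regulators. Members, lists and rules were chosen with earlier results of these data known.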

Additional observations from a re-analysis of the deposited data

Results flagged for a closer look

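Genotype effects that differed between the times, by edgeR's quasi-likelihood test of the difference with Benjamini-Hochberg adjustment, were found for 3 of the genes named. For Cox5a the effect at ZT8 exceeded that at ZT20 by 0.38 on the log2 scale (adjusted p = 0.0487), with the knockout livers above the wild type in 3 of 3 at ZT8 and below in 3 of 3 at ZT20. For Ndufab1 it exceeded it by 0.57 (adjusted p = 0.013). For Ppargc1b the difference was -0.89 (adjusted p = 0.031), with 11.4 ± 1.57 CPM in wild type and 5.99 ± 1.30 CPM in the knockout at ZT8, and 3.76 ± 0.34 and 3.68 ± 0.17 CPM at ZT20 (SD, n = 3). It ran from -1.08 to -0.66 over 20 alternatives and lost the call in 9 of them. Without both wild-type ZT8 libraries with high Saa1 it was -0.66 (adjusted p = 0.26). The call of Ndufab1 was kept in all 20.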

How the results depend on the processing

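The alternatives were RLE, upper-quartile or no composition scaling, no filter or at least 10 counts in every sample, DESeq2, only the 6 samples compared, a replicate block, an adjusted p of 0.01, each library left out in turn, and both wild-type ZT8 libraries with high Saa1 left out. The cause of the changes was not tested. Over time in wild type the main fit called 4018 of 14488 tested genes (27.7%). With library totals the median over all tested genes was -0.07, beside 0.13 over the members, against 0.00 and 0.20 in the main fit. From day to night in wild type the 31 calls became 15 with library totals, 2 without both high-Saa1 libraries and 13 at an adjusted p of 0.01, with medians of 0.13 for the first and 0.13 for the second, and all genes called became 1795 without both libraries and 2343 at 0.01. Between genotypes at ZT8 the 3 calls became 1, 1 and 1 under these settings and 5 with DESeq2, the median 0.0361 without both libraries, and all genes called 346 without them, 472 at 0.01 and 769 with 6 samples. At ZT20 DESeq2 called 1 member, and 223 genes passed 0.01. For the difference of the genotype effects, 0 members were called with library totals, upper-quartile scaling, both libraries left out or 0.01, and 5 with DESeq2, while all genes called were 493 without both libraries and 357 at 0.01, and the median 0.13 without them. In the knockout over time 2 members and 1231 genes passed 0.01.

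With each library left out, members called ran from 14 to 33 and all genes from 2865 to 4195 over time in wild type, and from 2 to 5 and 1566 to 2847 in the knockout. Between genotypes they ran from 1 to 5 and 542 to 1811 at ZT8, from 0 to 1 and 239 to 656 at ZT20, and from 0 to 7 and 493 to 1260 for the difference. Medians ran from 0.17 to 0.24, from -0.01 to 0.06, from 0.05 to 0.14, from -0.11 to -0.07 and from 0.16 to 0.22 in that order. Cox6b2 at ZT8 ran from -2.40 to 1.02, the upper value without wild-type replicate 1.

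Replicate numbers are shared between groups, but same-numbered samples did not deviate together (mean correlation -0.014 over 18 pairs, 0 above 0.1), and 1 of 12 samples correlated best with its own number. With a replicate block the members called were 3, 0, 1, 29 and 5 in the order genotype at ZT8, at ZT20, their difference, wild type and knockout over time.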
